A study of Mus musculus with 14 samples.

Results

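Insulin and IGF-1 signaling genes were followed in the intervertebral discs (IVDs) of both diabetic mouse models as a group of 10 genes chosen by name: Insr, Irs1, Irs2, Igf1, Igf1r, Pik3r1, Akt2, Foxo1, Tbc1d4 and Socs3. All 10 were present among the 55487 genes of the count table, and all 10 passed the filter on low counts (over 1 CPM, counts scaled to a total of 1000000 per library, in at least 3 libraries), which left 16915 genes tested. RNA of 14 male mice was sequenced, with 5 tail discs of each mouse pooled into 1 library. The db/db group held 3 mice homozygous for the leptin receptor mutation at 12 weeks of age, and its controls were 3 heterozygous db/+ mice of the same age, which carry 1 mutant allele. The STZ-HFD group held 4 C57BL/6J mice on a high-fat diet (80% of kcal from fat by the labels, while the methods of the study name a diet with a lower share) that received streptozotocin once at 100 mg/kg after a lead-in of 4 to 6 weeks, and their discs were taken 12 weeks later. The 4 Con+Veh controls were C57BL/6J mice on chow that received citrate buffer, labelled wild type. For the mice of both groups the methods of the study name an age of 12 weeks, then the lead-in and the 12 weeks that followed. Their discs were thus taken at a later age than those of the db/db and db/+ mice. Age and model cannot be told apart when the models are compared. The db mutation disrupts the leptin receptor in the whole animal, and streptozotocin damages the pancreatic beta cells, so neither model acts on the disc alone.

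Insulin and IGF-1 bind the related receptor tyrosine kinases Insr and Igf1r. The activated receptors phosphorylate the adaptors Irs1 and Irs2, which recruit PI3-kinase through its regulatory subunit Pik3r1, and the lipid it makes activates Akt. Akt2 phosphorylates Tbc1d4 (AS160), which releases the glucose transporter Slc2a4 (GLUT4) to the cell surface, and it keeps the transcription factor Foxo1 out of the nucleus. Socs3 is a cytokine-induced inhibitor that binds receptors and Irs proteins. In cartilage and disc, IGF-1 is known as an anabolic factor that favours matrix synthesis and cell survival.

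Library totals ran from 16076908 to 58943169 counts, and the labels give all libraries the same batch. The count table does not resolve discs from attached tissue: summed skeletal muscle markers reached 7390 to 57700 CPM, cartilage and inner annulus markers 901 to 25400 CPM, and nucleus pulposus markers 638 to 7790 CPM (7 of 10 passed the filter, and 1 was at 0 throughout db/db and 1 throughout db/+). Of the remaining marker lists, each of 10 genes, the osteoblast list was higher for 3 in db/db and 2 in STZ-HFD (3 called there), the outer annulus and tendon list for 6 and 1 (2 called in STZ-HFD), the endothelial list for 8 and 6 (1 called in db/db), the erythroid list for 3 and 2 of 5 tested, and the neutrophil list for 3 and 0 of 3 tested. STZ-HFD replicate 1 stood apart, with the lowest total and 42626 genes holding a count against 25194 to 29924 in the other libraries. Its scaling factor (TMM) was 1.58, against 0.693 to 0.742 in the other STZ-HFD mice, and its sample weight was 0.379. It held the lowest STZ-HFD level (CPM) of each of the 10 genes. In libraries of whole tissue, fewer cells of a type and less RNA per cell cannot be told apart. Nothing in the labels ties same-numbered mice together.

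Promoter sequences are shown for 2 pairs of these genes whose levels moved together over the libraries, Socs3 with Irs1 and Foxo1 with Igf1r. Each is the 250 bases before the RefSeq start (GRCm38.p6), 5′ to 3′ along the gene. Capitals mark the STAT motif TTCNNNGAA, the letters that Stat factors such as Stat3 bind. The FoxO motif GTAAACA was searched on both strands as well.
Socs3 promoter, chr11:117969367-117969616, minus strand: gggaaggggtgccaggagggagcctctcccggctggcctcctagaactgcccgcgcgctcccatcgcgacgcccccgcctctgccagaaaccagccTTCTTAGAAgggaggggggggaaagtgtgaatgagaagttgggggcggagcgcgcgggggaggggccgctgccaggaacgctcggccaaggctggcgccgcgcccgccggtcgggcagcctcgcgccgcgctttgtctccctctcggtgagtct
Irs1 promoter, chr1:82291440-82291689, minus strand: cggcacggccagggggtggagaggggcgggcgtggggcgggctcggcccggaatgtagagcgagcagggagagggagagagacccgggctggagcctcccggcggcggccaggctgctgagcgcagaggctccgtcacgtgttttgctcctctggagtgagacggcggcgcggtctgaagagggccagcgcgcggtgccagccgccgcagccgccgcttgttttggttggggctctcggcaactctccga
Foxo1 promoter, chr3:52268087-52268336, plus strand: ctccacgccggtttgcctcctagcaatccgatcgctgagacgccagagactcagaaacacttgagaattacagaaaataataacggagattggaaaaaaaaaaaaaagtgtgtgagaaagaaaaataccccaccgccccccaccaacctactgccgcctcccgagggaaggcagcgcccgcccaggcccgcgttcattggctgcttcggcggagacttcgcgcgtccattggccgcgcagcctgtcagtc
Igf1r promoter, chr7:67952007-67952256, plus strand: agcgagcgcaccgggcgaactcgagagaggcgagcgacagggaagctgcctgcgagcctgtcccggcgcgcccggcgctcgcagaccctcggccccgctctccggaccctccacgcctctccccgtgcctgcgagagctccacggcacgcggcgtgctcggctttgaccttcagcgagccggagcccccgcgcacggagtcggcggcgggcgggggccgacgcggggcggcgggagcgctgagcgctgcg
Of the 4 windows, only that of Socs3 held a STAT motif, at chr11:117969512-117969520, and none held the FoxO motif. The Socs3 window lies before the coding transcript and within the span of longer non-coding Socs3 transcripts of GENCODE, while those of the other 3 lie before the annotated gene or end at its first base. Over all 32536 promoter windows of the same length, 7.04% held the STAT motif and 3.17% the FoxO motif. RefSeq windows were at hand for 9 of the 10 genes, and among the others only Akt2 held a motif, TTCGGGGAA, again of the STAT kind. The windows of Socs3, Irs1 and Igf1r were 71.6%, 72.4% and 77.6% G and C, and that of Foxo1 was 56.0%.

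By the GENCODE annotation of GRCm38, the ligand gene Igf1 at chr10:87858265-87937042 and its receptor gene Igf1r at chr7:67952827-68233668 lie on the plus strand, as do Akt2 at chr7:27591552-27640826 and Foxo1 at chr3:52268336-52353221. The minus strand holds Insr at chr8:3122061-3279617, Irs1 at chr1:82233101-82291416, Irs2 at chr8:10984681-11008458, Pik3r1 at chr13:101680563-101768217, Tbc1d4 at chr14:101442360-101609191 and Socs3 at chr11:117966079-117970047. Values are read counts over the exons of each gene. The antisense gene Igf1os overlaps Igf1 and was at 0 to 0.822 CPM.

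Levels between genes were compared as RPKM, the CPM divided by exon length in kilobases. By the median over the 14 libraries, the order was Igf1 (11.5 RPKM), Irs1 (11.1), Irs2 (10.4), Pik3r1 (9.95), Foxo1 (6.89), Igf1r (6.32), Akt2 (4.67), Insr (3.91) and Tbc1d4 (3.22). Each of these overlapped its neighbour in the order from library to library. The leading gene differed between groups. Igf1 led in Con+Veh (16.3 ± 2.95 RPKM, SD, n = 4) but stood below Irs1, Foxo1, Irs2, Pik3r1 and Igf1r in db/+ (7.03 ± 0.936 RPKM, n = 3), where Irs1 led with 17.0 ± 6.80 RPKM. In db/db Foxo1 (14.6 ± 7.95 RPKM), Irs2 (14.5 ± 4.51 RPKM) and Igf1 (13.6 ± 3.69 RPKM) lay within their spread, as did Irs1 (10.1 ± 5.09 RPKM) and Igf1 (9.96 ± 3.16 RPKM) in STZ-HFD. Socs3 was set apart at the bottom, with 0.313 to 1.53 RPKM against 2.07 to 4.51 RPKM for Tbc1d4, and rested on 22 to 221 counts per library.

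**Figure D1:**
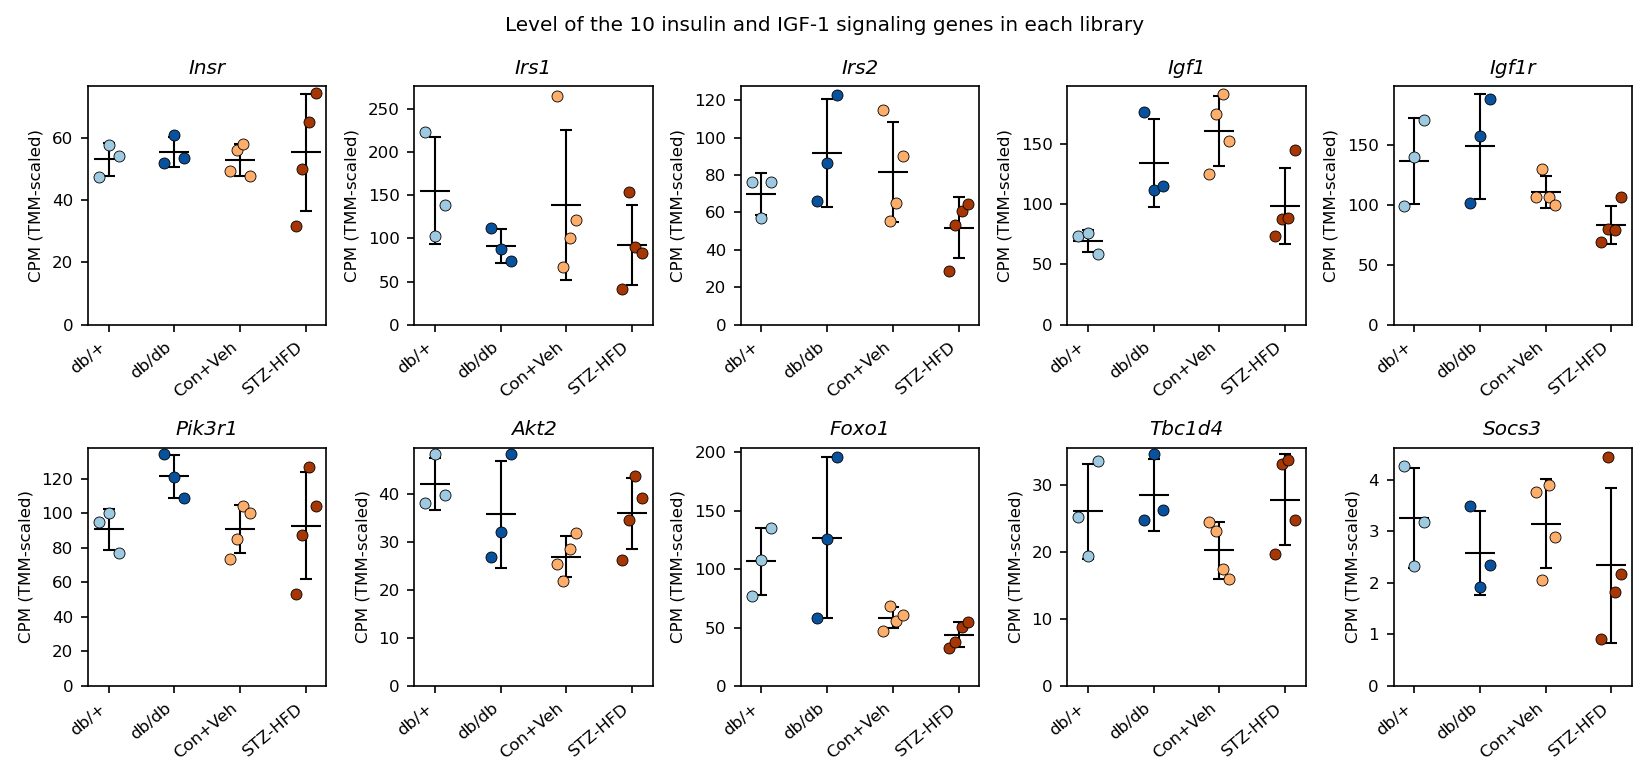
Level of each of the 10 genes in every library, as CPM scaled by TMM, with each point a mouse and the bars the mean and SD of a group (db/+ and db/db, n = 3; Con+Veh and STZ-HFD, n = 4). The db/db points of Igf1 and Pik3r1 lie above all db/+ points, and no gene separates STZ-HFD from Con+Veh. For Akt2 and Tbc1d4 only STZ-HFD replicate 1 overlaps Con+Veh, and for Igf1 and Igf1r only replicate 4.

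In neither model did any of the 10 genes pass the test, and 1 gene, Igf1, responded differently in the 2 models. Calls needed an adjusted p under 0.05 (limma voomWithQualityWeights, Benjamini-Hochberg over all genes tested) together with a log2 fold change of at least 1 in size. In db/db against db/+, 0 of 10 were called beside 1.66% of all genes, in STZ-HFD against Con+Veh 0 of 10 beside 2.61%, and in the difference of the 2 responses 1 of 10 beside 1.77%. At an unadjusted p under 0.05, 1 of 10 passed in db/db beside 21.1% of all genes, and 3 of 10 in STZ-HFD beside 17.9%. The edgeR quasi-likelihood test and DESeq2 also called 0 of 10 in each model, with 1 and 2 genes at an unadjusted p under 0.05 by either tool. In db/db, 7 of the 10 were higher and 3 lower, with a median log2 fold change of 0.14, and in STZ-HFD 4 were higher and 6 lower with a median of -0.28. The median of all genes tested was -0.04 in both models. The db/db libraries lay wholly above or below the db/+ libraries for 2 of the 10 genes, where 25.8% of all genes did so, and the STZ-HFD and Con+Veh libraries overlapped for all 10, where 4.74% of all genes did not. For Akt2 and Tbc1d4 this overlap came from STZ-HFD replicate 1 alone, and for Igf1 and Igf1r from replicate 4 alone.

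**Figure D2:**
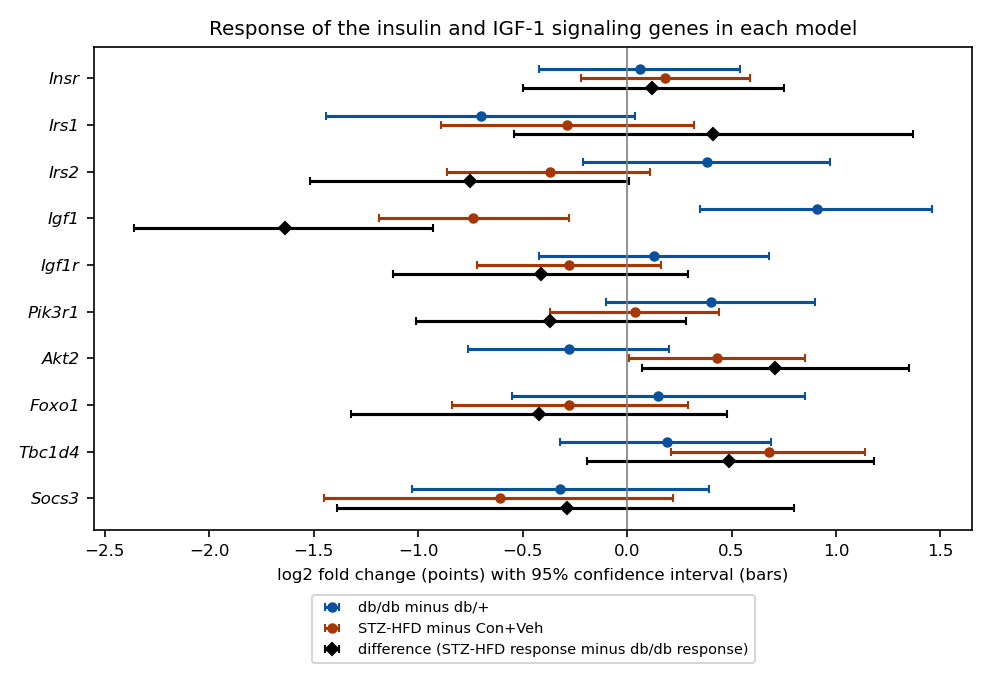
Log2 fold change of each gene in db/db (blue) and in STZ-HFD (brown) against its own controls, and the difference of the 2 responses (black diamonds), with 95% confidence intervals. Igf1 lies at 0.91 in db/db and -0.74 in STZ-HFD, and its difference of -1.64 is the one that passed the test.

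Igf1, the ligand made in many tissues in response to growth hormone, had opposite responses in the 2 models, above the controls in db/db and below them in STZ-HFD. The difference of the responses passed the test, and neither response did so alone. The models also differed in age at harvest and in the share of ribosomal RNA, which cannot be told apart from them. It stood at 177, 112 and 115 CPM in the db/db mice and at 74.1, 75.9 and 59 CPM in the db/+ mice. In the other model it stood at 74.0, 87.5, 88.4 and 145 CPM in STZ-HFD and at 125, 175, 192 and 153 CPM in Con+Veh. Every db/db mouse was above every db/+ mouse, while STZ-HFD replicate 4 reached into the control range. The log2 fold change was 0.91 (SE 0.26, 95% confidence interval 0.35 to 1.46, limma adjusted p = 0.0738) in db/db, which is 1.87-fold. In STZ-HFD it was -0.74 (SE 0.22, interval -1.19 to -0.28, limma adjusted p = 0.0690), a ratio of 0.600. The difference between the 2 responses was -1.64 on the log2 scale (SE 0.34, interval -2.36 to -0.93, limma adjusted p = 0.0266).

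The Igf1 difference kept its sign under all 30 alternatives, between -2.43 and -1.32, with adjusted p from 0.00597 to 0.255, and it passed the test in 16 of them. The alternative without a minimum fold change was the reported fit itself, so its pass was fixed. DESeq2 gave -1.65 (adjusted p = 0.00597), while the edgeR quasi-likelihood test gave -1.66 (adjusted p = 0.154) and voom without sample weights -1.67 (adjusted p = 0.163). The call was lost without db/db replicate 1 (-1.43, adjusted p = 0.0639) or 3 (-1.75, 0.0542) and without db/+ replicate 2 (-1.73, 0.0608). It was also lost without Con+Veh replicate 3 (-1.46, adjusted p = 0.153), which carried the largest sample weight at 3.05, and without STZ-HFD replicate 2 (-1.52, 0.0533) or 3 (-1.56, 0.0749). In the fits that lost it, the calls in the difference over all genes fell from 299 to between 4 and 149. Within STZ-HFD alone, Igf1 was called lower without STZ-HFD replicate 4 (-1.02, adjusted p = 0.0384).

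Marker lists of other cells also differed between the groups. By count of tested genes, the outer annulus and tendon list (6 of 10 higher in db/db, 1 of 10 in STZ-HFD) and the neutrophil list (3 of 3 and 0 of 3) took the direction of Igf1. The summed level of the former was not higher in db/db than in db/+. Summed, the former stood at 19500 to 23700 CPM in db/+, 12500 to 22100 in db/db, 2140 to 4210 in Con+Veh and 1210 to 3680 in STZ-HFD, and the latter at 7.43 to 17.4, 18.6 to 53.6, 3.37 to 32.6 and 4.43 to 6.91 CPM, with 1 neutrophil marker at 0 throughout each group. The lists that follow did not take the direction of Igf1 in both models. The macrophage list was higher for 5 of 10 genes in db/db and for 0 of 10 in STZ-HFD (3 called), with summed levels of 123 to 190 CPM in db/+, 135 to 258 in db/db, 159 to 328 in Con+Veh and 117 to 199 in STZ-HFD. The adipocyte list was higher for 9 of 10 genes in db/db and 10 of 10 in STZ-HFD, with summed levels of 293 to 615 CPM in db/+, 614 to 1150 in db/db, 694 to 1200 in Con+Veh and 1260 to 1760 in STZ-HFD. The cartilage and inner annulus list was higher for 3 of 10 genes in db/db and 0 of 10 in STZ-HFD (7 called), at 15300 to 25400 CPM in db/+, 7500 to 16200 in db/db, 1960 to 5650 in Con+Veh and 901 to 1620 in STZ-HFD. No marker of the macrophage, adipocyte and cartilage lists was at 0 in all libraries of a group. With the macrophage score as a covariate the Igf1 difference was -1.32 (adjusted p = 0.122), with the adipocyte score -1.41 (adjusted p = 0.0874), with the cartilage score -1.70 (adjusted p = 0.255) and with the skeletal muscle score -2.43 (adjusted p = 0.0752). Calls in the difference over all genes fell from 299 to 14, 26, 9 and 40 with these scores, so a lost call is not particular to Igf1. Within the models, the adipocyte score took the db/db value of Igf1 from 0.91 to 0.38 (adjusted p = 0.833) and left -1.03 in STZ-HFD (adjusted p = 0.291). The macrophage score took the STZ-HFD value from -0.74 to -0.42 (adjusted p = 0.754) and left 0.90 in db/db (adjusted p = 0.0474, under the minimum fold change). With the muscle score the 2 values were 1.31 (adjusted p = 0.0702) and -1.12 (adjusted p = 0.104). The db/db response also fell with the G and C content of genes, from a median log2 fold change of 0.36 in the lowest of 20 bins to -0.50 in the highest. The bin of Igf1, a gene of 43.6% G and C, had a median of 0.25. With that trend removed, Igf1 gave 0.64 in db/db (adjusted p = 0.220) and -0.76 in STZ-HFD (adjusted p = 0.0464, under the minimum fold change), and the difference stayed called at -1.40 (adjusted p = 0.0468). The part of cell makeup in the Igf1 response was not tested further.

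**Figure D3:**
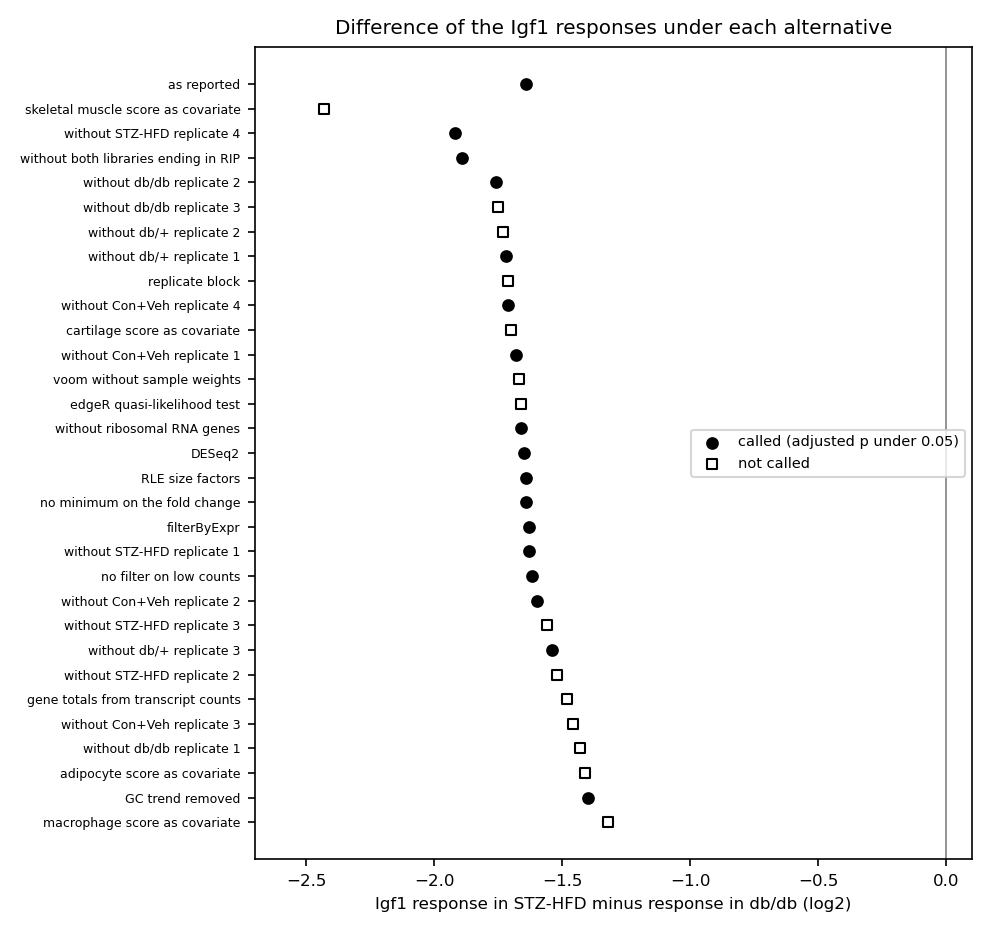
Difference of the Igf1 responses (STZ-HFD response minus db/db response, log2, horizontal axis) as reported and under each of 30 alternatives (vertical axis), filled where called and open where not. All points lie between -2.43 and -1.32. The point without a minimum fold change repeats the reported fit.

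Neither receptor passed the test in either model, and their libraries overlapped those of the controls. Insr, the insulin receptor, stood at 51.9, 60.7 and 53.4 CPM in db/db and 47.3, 57.5 and 54.2 CPM in db/+. It ranged from 31.7 to 74.4 CPM in STZ-HFD and from 47.5 to 58.0 CPM in Con+Veh. Among STZ-HFD mice it was below all controls only in replicate 1, and above them in replicates 3 and 4. Its log2 fold change was 0.06 (interval -0.42 to 0.54) in db/db and 0.18 (interval -0.22 to 0.59) in STZ-HFD. Igf1r, the IGF-1 receptor, was 101, 157 and 188 CPM in db/db beside 99.2, 140 and 171 CPM in db/+. In STZ-HFD it was 68.9, 79.5, 78.6 and 106 CPM, and in Con+Veh 106, 130, 106 and 100 CPM, with 3 of 4 STZ-HFD mice below all controls. Its log2 fold change was 0.13 (interval -0.42 to 0.68) and -0.28 (interval -0.72 to 0.16), respectively. Of the other receptors listed, Igf2r, which clears IGF-2, had -0.39 in db/db and 0.21 in STZ-HFD, and Insrr was too low to test.

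The adaptors Irs1 and Irs2 carry the signal from the receptors to PI3-kinase. Irs1 was 112, 87.8 and 73.9 CPM in db/db and 224, 103 and 139 CPM in db/+, so that 1 db/db mouse lay within the control range. In STZ-HFD it was 41.4, 154, 89.8 and 83.4 CPM, and Con+Veh held the widest spread, with 266, 67.4, 101 and 121 CPM. For Irs1 the log2 fold change was -0.70 (SE 0.35, interval -1.44 to 0.04, limma adjusted p = 0.265) in db/db and -0.29 (interval -0.89 to 0.32) in STZ-HFD. Irs2, which Foxo1 is known to induce, pointed up in db/db and down in STZ-HFD, as Igf1 did, but did not pass the test. It stood at 66.3, 86.4 and 123 CPM in db/db beside 76.3, 57.1 and 76.5 in db/+, and at 28.8, 53.2, 61.0 and 64.6 CPM in STZ-HFD beside 115, 55.6, 65.3 and 90.2 in Con+Veh. The log2 fold changes were 0.38 (interval -0.21 to 0.97) and -0.37 (interval -0.86 to 0.11), and their difference was -0.75 (interval -1.52 to 0.01, limma adjusted p = 0.298). The db/db value of Irs2 stood against a median of -0.42 in its bin of G and C content. Among 8 other adaptors, 7 passed the filter and Sh2b1, which binds Jak2 and the insulin receptor, was called lower in db/db.

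Pik3r1, the regulatory subunit of PI3-kinase, was higher in every db/db mouse (134, 121 and 109 CPM) than in every db/+ mouse (94.8, 100 and 77.2 CPM). Its log2 fold change of 0.40 (SE 0.24, interval -0.10 to 0.90, limma adjusted p = 0.341) did not pass the test, and with the adipocyte score as a covariate it was -0.12. In STZ-HFD it ranged from 53.0 to 127 CPM, beside 73.8 to 104 CPM in Con+Veh, and the log2 fold change was 0.04 (interval -0.37 to 0.44). Akt2, the Akt kinase most tied to glucose uptake, pointed the other way from Igf1 in each model. It was 26.9, 32.1 and 48.2 CPM in db/db and 38.0, 48.3 and 39.8 CPM in db/+, and 26.2, 34.5, 43.7 and 39.2 CPM in STZ-HFD beside 25.3, 21.9, 28.5 and 31.8 CPM in Con+Veh. Of the STZ-HFD mice, 3 of 4 were above all controls, and replicate 1 was among them. Akt2 had a log2 fold change of -0.28 (interval -0.76 to 0.20) in db/db and 0.43 (interval 0.01 to 0.85, limma adjusted p = 0.273) in STZ-HFD. The difference of its responses was 0.71 (interval 0.07 to 1.35, limma adjusted p = 0.235). The bin of G and C content that holds Akt2 had a db/db median of -0.33, close to its own value, and with that trend removed Akt2 stood at 0.02 in db/db.

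Foxo1, the transcription factor that Akt restrains, spread widely among the mice of the db cohort and did not pass the test in either model. It was 58.3, 126 and 196 CPM in db/db and 77.3, 108 and 135 CPM in db/+, which gave 0.15 on the log2 scale (SE 0.33, interval -0.55 to 0.85). In STZ-HFD it was 32.8, 37.9, 50.8 and 54.9 CPM, and in Con+Veh 47.3, 68.6, 55.9 and 61.2 CPM, which gave -0.28 (interval -0.84 to 0.29). Both groups overlapped their controls. The RNA level does not show where the protein lies or whether Akt has phosphorylated it.

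Genes that FoxO factors are known to induce or repress were listed to read beside Foxo1. Of 20 listed, 19 passed the filter, and 1 was called higher in db/db (1.23% of all genes were called higher) and 0 lower (0.432%). In STZ-HFD 3 were called higher and 1 lower, beside 1.30% and 1.31% of all genes. On the log2 scale the 19 genes had medians of 0.21 (db/db) and 0.18 (STZ-HFD). Pck1, the gluconeogenic enzyme that fat cells also make, rose in both models, by 1.57 (SE 0.38, limma adjusted p = 0.0433) in db/db and 1.82 (SE 0.36, limma adjusted p = 0.0154) in STZ-HFD on the log2 scale. The adipocyte markers given above moved the same way, and with their score as a covariate the 2 values of Pck1 were 0.40 and 1.23 and neither was called. That score took the calls over all genes from 281 to 0 in db/db and from 441 to 2 in STZ-HFD. The lost calls are therefore not particular to Pck1.

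In STZ-HFD, Pdk4, the kinase that shuts off pyruvate dehydrogenase, rose from 16.1 ± 4.89 CPM in Con+Veh to 117 ± 38.2 CPM (SD, n = 4 each). On the log2 scale Pdk4 rose by 2.80 (SE 0.28, limma adjusted p = 7.43e-05), and the call held in all 14 fits that left out 1 library. In 6 of these fits the library left out was db/db or db/+, which does not enter the means compared, and Pdk4 stayed at 2.80 to 2.81. Trim63, a ubiquitin ligase of skeletal muscle, rose by 1.36 (limma adjusted p = 0.0104), and Bcl6, a transcriptional repressor, fell from 108 ± 28.7 to 46.9 ± 11.2 CPM (limma adjusted p = 0.0196). The skeletal muscle markers were higher for 10 of 10 genes in STZ-HFD (4 called) and 0 of 10 in db/db, with summed levels of 17300 to 40000 CPM in Con+Veh and 20900 to 57700 CPM in STZ-HFD. With the muscle score as a covariate, Trim63 was at 0.70 (adjusted p = 0.353) and was not called. That score took the STZ-HFD calls over all genes from 441 to 73. Leaving out 1 library at a time kept the Trim63 call in 10 of 14 fits. The 6 fits without a db/db or db/+ library were among these 10, with Trim63 at 1.36 in each. It was lost without Con+Veh replicates 3 and 4 and STZ-HFD replicates 3 and 4, with values of 1.29 to 1.39. In these fits the STZ-HFD calls over all genes fell from 441 to 17, 18, 18 and 164. The Bcl6 call, close to the minimum fold change, was kept in 6 of the 14 fits and lost without db/+ replicate 1, Con+Veh replicates 1, 3 and 4 or any 1 STZ-HFD library (-1.23 to -0.84). Apart from the fit without Con+Veh replicate 2, the fits that kept the Bcl6 call left out a db/db or db/+ library. Pck1 lost its STZ-HFD call without Con+Veh replicate 3 or 4 or STZ-HFD replicate 3 (1.58 to 2.17). It lost its db/db call without any 1 of the 6 db/db and db/+ libraries, Con+Veh replicate 1 or STZ-HFD replicates 1 or 4 (1.03 to 1.81). Without any 1 of those 6, between 21 and 143 genes in all were called in db/db, against 281. Of 15 further alternatives, Pdk4 was called in 14 (not with the adipocyte score, 2.71, adjusted p = 0.0549), Trim63 in 8, Bcl6 in 5 and Pck1 in 10 in STZ-HFD and 9 in db/db. The alternative without a minimum fold change repeated the reported fit, so no call could be lost there.

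Tbc1d4, the Akt substrate that holds back Slc2a4 vesicles, showed its larger value in STZ-HFD. It was 19.6, 33.1, 33.6 and 24.8 CPM in STZ-HFD and 24.5, 23.1, 17.4 and 15.9 CPM in Con+Veh. Thus 3 of 4 STZ-HFD mice were above all controls and replicate 1 was among them. The log2 fold change of Tbc1d4 was 0.68 (SE 0.22, interval 0.21 to 1.14, unadjusted p = 0.00669 and limma adjusted p = 0.0998). In db/db it was 24.7, 34.6 and 26.2 CPM beside 25.2, 19.4 and 33.5 CPM in db/+, and the log2 fold change was 0.19 (interval -0.32 to 0.69). Slc2a4, the insulin-responsive glucose transporter downstream of Tbc1d4, was the 1 gene of its arm called. It stood at 43.1, 48.7, 101 and 91.0 CPM in STZ-HFD and 25.8, 43.8, 29.2 and 36.6 CPM in Con+Veh, and rose by 1.30 on the log2 scale (SE 0.27, limma adjusted p = 0.0186). In db/db it was at -0.55, and the difference of the responses was 1.85 (limma adjusted p = 0.0341). Slc2a4 is also a muscle and fat gene: with the muscle score as a covariate its STZ-HFD value was 0.57 (adjusted p = 0.438) and its difference 0.43 (adjusted p = 0.764), and neither was called. Calls over all genes went from 441 to 73 in STZ-HFD and from 299 to 40 in the difference with that score. The STZ-HFD call was also lost without Con+Veh replicate 3 or 4 or STZ-HFD replicate 3 or 4, with values of 1.03 to 1.34. Those fits called 17 to 164 genes in all in STZ-HFD, against 441.

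Socs3, the feedback inhibitor of cytokine and insulin signals, was at 3.48, 1.91 and 2.34 CPM in db/db and 4.27, 2.33 and 3.17 CPM in db/+. In STZ-HFD it was 0.904, 4.44, 1.83 and 2.17 CPM, and in Con+Veh 3.75, 2.06, 3.90 and 2.88 CPM. The highest and the lowest mouse of all 14 both belonged to STZ-HFD. Socs3 had a log2 fold change of -0.32 (SE 0.34, interval -1.03 to 0.39) in db/db and -0.61 (SE 0.39, interval -1.45 to 0.22, limma adjusted p = 0.448) in STZ-HFD. With 60.4% G and C, Socs3 fell into the bin with a db/db median of -0.50, and with the trend removed its db/db value turned to 0.17. Of 14 genes listed around Stat3, the factor that induces Socs3, 11 passed the filter, and Il6, Lif and Osm were too low to test. Of the 11, 1 was called, in STZ-HFD, where 1.31% of all genes were called lower. It was Lepr, the leptin receptor that acts through Jak2 and Stat3, at 9.41, 9.25, 10.5 and 13.1 CPM in STZ-HFD and 22.9, 20.2, 26 and 22 CPM in Con+Veh, with no overlap, as for 4.74% of all genes tested. The Lepr value was -1.11 on the log2 scale (SE 0.21, limma adjusted p = 0.0107), and the call was lost without Con+Veh replicate 3 or 4 or STZ-HFD replicate 3 (-1.14 to -0.97). Those fits called 17, 18 and 18 genes in all in STZ-HFD, against 441. In db/db, where the mutation lies in this gene, Lepr RNA was 4.86, 7.67 and 5.89 CPM beside 9.68, 6.50 and 6.08 CPM in db/+ (-0.25, SE 0.25).

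The rest of the pathway was read from 8 lists with 65 further genes, of which 60 passed the filter. In db/db 2 of the 60 were called, both lower, and in STZ-HFD 1 was called, higher, with medians of -0.08 and 0.01. Of all genes tested, 0.432% were called lower in db/db and 1.30% higher in STZ-HFD. The db/db calls were Sh2b1, at 4.89 ± 1.02 CPM beside 10.2 ± 1.43 CPM in db/+ (SD, n = 3 each; -1.09, SE 0.24, limma adjusted p = 0.0327), and Inppl1 (SHIP2), the lipid phosphatase that opposes PI3-kinase, at 47.2 ± 6.78 beside 97.2 ± 7.16 CPM (-1.04, SE 0.25, limma adjusted p = 0.0409). Sh2b1 lost its call without any 1 of the 6 db/db and db/+ libraries (-1.21 to -0.90), and Inppl1 did so as well and without Con+Veh replicate 4 (-1.13 to -0.92). Without any 1 of those 6 libraries, the db/db calls over all genes fell from 281 to between 21 and 143. With the trend over G and C content removed, they stood at -0.67 (adjusted p = 0.151) and -0.62 (adjusted p = 0.189). Of 15 alternatives that kept all libraries or left out both libraries whose names end in RIP (Con+Veh replicate 2 and STZ-HFD replicate 4), Sh2b1 was called in 8, Inppl1 in 7, and Slc2a4 and Lepr in STZ-HFD in 7 and 8. These counts include the alternative without a minimum fold change, which repeated the reported fit.

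Among the negative regulators, the list of Inppl1, 2 more genes passed the adjusted p in STZ-HFD but not the minimum fold change. These were Pik3ip1 at 0.99 (limma adjusted p = 0.0361) and Enpp1 at -0.80 (limma adjusted p = 0.0427). No gene of the other lists was called, and the genes nearest to a call in those lists belonged mostly to db/db. Around the ligands, Stat5a, which carries the growth hormone signal to Igf1, was at -0.72 in db/db (limma adjusted p = 0.0580), and Ghr, the growth hormone receptor, at 0.87 (limma adjusted p = 0.125). Ghr was 124, 114 and 101 CPM in db/db and 63.6, 56.3 and 65.9 CPM in db/+, without overlap, as for 25.8% of all genes tested. Among PI3-kinase subunits, the catalytic subunits Pik3cd and Pik3cb stood at -1.07 (limma adjusted p = 0.1) and 0.75 (limma adjusted p = 0.107) in db/db. In the Akt and mTOR arm, Rptor, the mTORC1 scaffold, was at -0.63 in db/db (limma adjusted p = 0.0936) and Akt1 at -0.72 in STZ-HFD (limma adjusted p = 0.180). Of the other FoxO factors, Foxo6 was at -0.57 in db/db (limma adjusted p = 0.304) and Foxo3 at -0.31 in STZ-HFD (limma adjusted p = 0.382). Ins1 and Ins2, which code for insulin itself, were too low to test in any group.

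**Figure D4:**
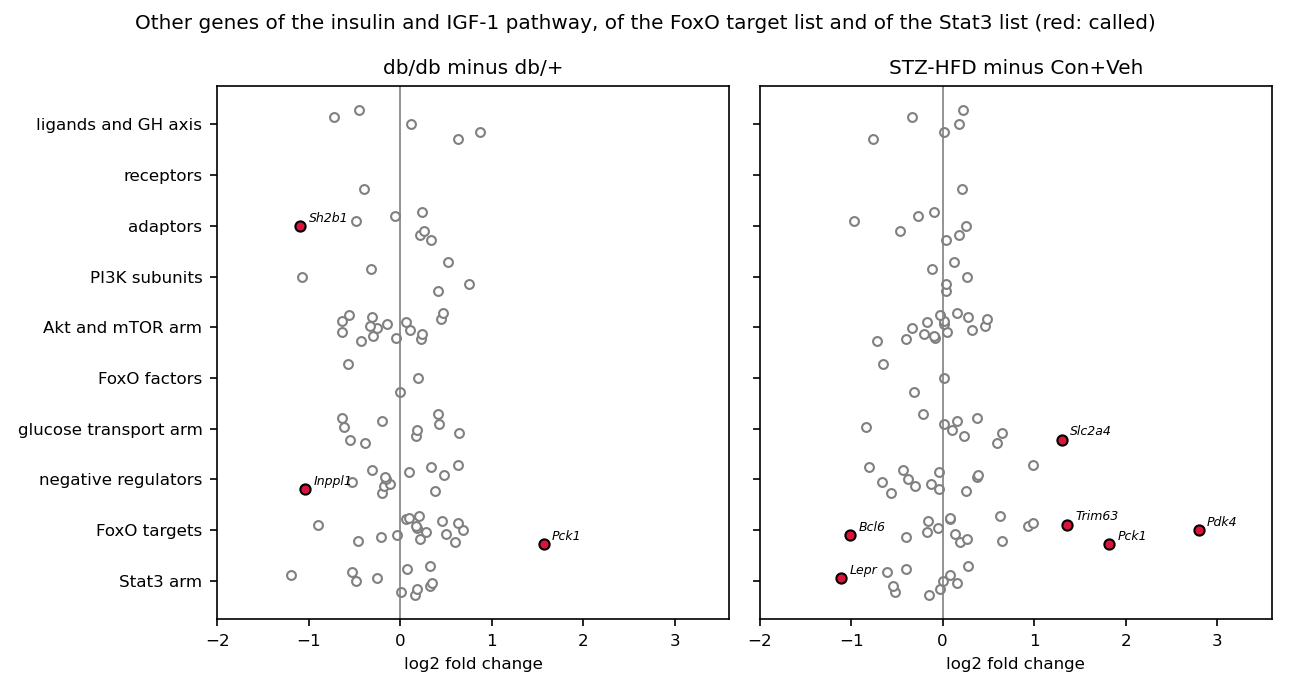
Log2 fold changes of the other tested genes of the pathway, of the FoxO targets and of the Stat3 list (horizontal axis), by list (vertical axis), with each circle a gene and red where called. Sh2b1 and Inppl1 are called in db/db, Slc2a4, Trim63, Pdk4, Bcl6 and Lepr in STZ-HFD, and Pck1 in both.

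Within the group of 10, 2 pairs of genes followed each other from library to library. Pearson's r of log2 CPM over the 14 libraries was 0.94 for Igf1r and Foxo1 and 0.85 for Irs1 and Socs3, given as a description since the libraries share groups, depth and tissue makeup. Igf1 was near unrelated to its receptor (r = 0.01) and ran opposite to Akt2 (r = -0.52). Over all tested genes, Igf1 was most like Rps26 (r = 0.946), Gm7867 (0.944) and Wfdc17 (0.941). Foxo1 and Igf1r had Vamp2 and Stxbp5 in common among their nearest genes, Vamp2 at r = 0.963 with Foxo1 and 0.945 with Igf1r, and Stxbp5 at 0.948 and 0.964. Foxo1 was also close to Spire1 (0.951). Irs1 was most like Zfp512b (0.974), Mark2 (0.961) and Smarca4 (0.958), and Socs3 most like Dapk1 (0.929), Numa1 (0.91) and 2310033P09Rik (0.905). Genes near Irs2 included Zfp503 (0.895) and Sp2 (0.892), the nearest to Pik3r1 were Cyfip1 (0.901), Ak3 (0.895) and Pcyox1 (0.892), and the nearest to Akt2 were Castor2 (0.877), Ctbp1 (0.857) and Yipf3 (0.848). Insr had Srpr (0.848), Eci2 (0.847) and St3gal6 (0.838), and Tbc1d4 had the least close neighbours, Stk38 (0.828), Gm17428 (0.815) and Gm21781 (0.796).

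Estimated counts per transcript gave a second readout of the same libraries. Shares are percentages of the summed transcript counts of a gene. Only 1 transcript each was listed for Irs1, Irs2 and Foxo1, so their share of 100% was fixed. Of 3 listed for Socs3, 1 held 100% in every library. Igf1r-201 held 94.8% to 98.9% of Igf1r, and Insr-201 held 81.0% to 93.1% of Insr. Igf1 was split between Igf1-205 (6.56% to 28.7%), Igf1-206 (7.25% to 65.6%) and Igf1-208 (0% to 69.3%), all coding transcripts. In Con+Veh, Igf1-206 made up 65.6%, 18.0%, 50.8% and 54.4% of Igf1, and in STZ-HFD 16.4%, 47.8%, 7.25% and 18.4%. The means were 47.2% ± 20.5 and 22.5% ± 17.6 (SD, n = 4), a difference of -24.7 points (exact permutation test, two-sided, p = 0.0857, adjusted p = 0.444 over 20 tests). In db/db Igf1-206 was 23% ± 7.58, against 15.0% ± 2.42 in db/+ (n = 3, exact permutation p = 0.1, the smallest that 3 against 3 allow). Over all 20 tests of transcript shares, with 0.029 the smallest p for 4 against 4, 0 passed the adjusted threshold. Transcript counts held 23.7% of the gene counts of Igf1, 29.6% of those of Socs3 and 41.2% of those of Irs1, the highest of the group. The lowest was 6.1% for Pik3r1, where most came from the retained-intron forms Pik3r1-203 and Pik3r1-206. Akt2-205 held 50.0% to 100% of Akt2, and Tbc1d4-209 held 0% to 95.4% of Tbc1d4.

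**Figure D5:**
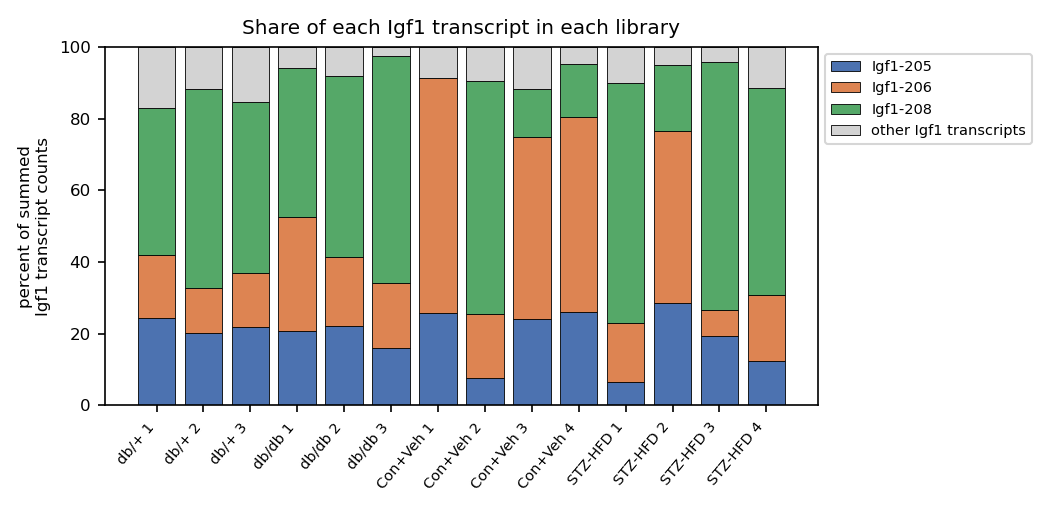
Share of each Igf1 transcript in the summed Igf1 transcript counts of every library (percent, stacked bars, 1 bar a mouse), with transcripts under 10% on average in grey. Igf1-206 ranges from 7.25% to 65.6% and the Con+Veh and STZ-HFD libraries overlap.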

How the data were processed

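The authors aligned reads with STAR to the Ensembl mouse assembly (GRCm38). The authors deposited whole-number gene counts from featureCounts, not normalized, and estimated counts of transcripts from Salmon, as the submitters' processing notes name these tools. The strand setting of the counting is not given in the sources used here, and antisense genes overlap Insr, Igf1 and Foxo1. Of 55774 gene lines, 287 repeat an identifier with identical values and were used once. Counts were scaled by TMM (edgeR 4.0.16) and tested in 1 fit over 14 libraries with limma 3.58.1 voomWithQualityWeights in R 4.3.3. CPM, log2 values with a prior count of 2 for marker scores, and RPKM over GENCODE M21 exon lengths were computed from the deposited counts. Transcript shares were tested with an exact permutation test (scipy 1.17.1) for transcripts of at least 10% of their gene. DESeq2 1.42.0 and edgeR's quasi-likelihood test were alternatives. The main fit was also run on simulated data, with calls at an adjusted p under 0.05 alone. There it missed nearly all changes as small as the minimum fold change. A score is the mean log2 CPM of a marker list.

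The genes, lists and tests were chosen with earlier results of these data known. The text names all 10 genes, every other listed gene that was called, and in lists without a call the 2 genes of smallest adjusted p. Pik3ip1 and Enpp1 were added as pathway genes that passed the adjusted p alone. Of the 3 genes most like each of the 10 over the libraries, some are not reported here. Replicates are separate mice. No 2 libraries of a group agreed within sampling noise (chi-square per degree of freedom 47.2 to 499.2). At 16076908 to 58943169 counts per library, 3 counts correspond to 0.0509 to 0.187 CPM of the raw library totals. The CPM of genes given above use totals of the filtered genes scaled by TMM, so this range does not apply to them directly. PCR duplicates were not resolved, so counting limits cover counting error only.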

Additional observations from a re-analysis of the deposited data

Results flagged for a closer look

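The responses of 4 genes differed between the models by the test of the difference (STZ-HFD response minus db/db response, log2, limma adjusted p). These were Igf1 at -1.64 (adjusted p = 0.0266), Slc2a4 at 1.85 (0.0341), Pdk4 at 2.11 (0.0251) and Trim63 at 2.26 (0.0176). With the skeletal muscle score as a covariate, Igf1 was at -2.43, Slc2a4 at 0.43, Pdk4 at 1.67 and Trim63 at 0.71, and none of the 4 was called. Over all genes, 40 were called in the difference with that score, against 299 without it. Leaving out 1 library at a time kept the call in 8 of 14 fits for Igf1, 5 of 14 for Slc2a4, 8 of 14 for Pdk4 and 12 of 14 for Trim63. These fits called 4 to 423 genes in all in the difference, against 299 with every library. The calls of Igf1 ended without db/db replicates 1 and 3, db/+ replicate 2, Con+Veh replicate 3 and STZ-HFD replicates 2 and 3, each left out alone (-1.75 to -1.43). For Slc2a4 these libraries were db/db replicates 1, 2 and 3, db/+ replicates 1 and 2, Con+Veh replicates 3 and 4 and STZ-HFD replicates 3 and 4 (1.46 to 1.97). For Pdk4 they were db/db replicate 1, db/+ replicates 1 and 2, Con+Veh replicates 3 and 4 and STZ-HFD replicate 3 (1.86 to 2.46), and for Trim63 db/+ replicate 2 and Con+Veh replicate 3 (1.89 to 2.21).

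Among 52 groups of 4 libraries tested with Dixon's ratio at its 95% critical value, which chance exceeds in about 1 of 20 groups, 5 transcript shares held a library far from the others and no gene level did. That rate does not hold for shares at 0% or 100%, and transcripts at 100% in every library could not be flagged. In STZ-HFD these were Insr-201 with 1 library at 84.2% of the gene, Akt2-202 at 10.9%, Akt2-205 at 88.4% and Tbc1d4-204 at 33.1%. That library was replicate 2 each time, and for Akt2-202 and Tbc1d4-204 the other STZ-HFD libraries were at 0%. In Con+Veh it was Igf1-205 at 7.55%. The 2 Akt2 shares are complementary and count as 1 pattern.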

How the results depend on the processing

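The number of the 10 genes called in the difference of the responses was 1, and it fell to 0 with the edgeR quasi-likelihood test, voom without sample weights, gene totals from transcript counts, and the skeletal muscle, adipocyte, macrophage or cartilage score as a covariate, the last 2 added after seeing the data. With the replicate block it was also 0 (Igf1 at -1.71, adjusted p = 0.156), while 1 gene, Igf1, was then called in db/db (1.05, adjusted p = 0.00277). The block moved the counts over all genes from 281 to 1484 in db/db and from 441 to 6 in STZ-HFD. The labels do not pair libraries by number. Deviations of same-numbered libraries from their group means correlated at -0.28 to 0.192 in the db cohort and -0.26 to -0.042 in the STZ cohort. Those of other pairs correlated at -0.275 to 0.453 and -0.172 to 0.261. With 3 or 4 libraries a group, these values cannot show whether same-numbered libraries shared handling. Leaving out 1 library gave 0 to 1 genes in the difference, 0 in db/db, and 0 to 1 in STZ-HFD. Over all genes these fits called 4 to 423, 21 to 392 and 17 to 642. The 3 pathway genes called became 0 with edgeR, voom without weights, the muscle or the adipocyte score, 1 with DESeq2 or transcript totals, 5 without a minimum fold change, and 1 to 4 without 1 library. Over all 16915 genes, edgeR called 0 (db/db) and 29 (STZ-HFD), voom without weights 9 and 19, and DESeq2 212 and 277. The muscle score left 116 and 73 calls and the adipocyte score 0 and 2. A fit of each model alone gives no difference. Transcript shares gave 0 calls throughout.

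The following log2 values turned sign, none of them called. Without sample weights, Insr in STZ-HFD was at 0.00, Pik3r1 at -0.04 and the Insr difference at -0.07, and with DESeq2 that difference was 0.00. With the replicate block Foxo1 in db/db was at -0.09. With transcript totals, Pik3r1 in db/db was at -0.01, Akt2 at 0.06 and the Pik3r1 difference at 0.32. With the GC trend removed, Insr, Akt2 and Socs3 in db/db were at -0.12, 0.02 and 0.17. With the muscle score, Igf1r, Foxo1 and Tbc1d4 in db/db were at -0.36, -0.53 and -0.17, Igf1r, Pik3r1 and Foxo1 in STZ-HFD at 0.05, -0.40 and 0.17, and the differences of Insr, Irs1, Igf1r and Foxo1 at -0.11, -0.37, 0.41 and 0.69. With the adipocyte score, Insr and Pik3r1 in db/db were at -0.28 and -0.12 and Pik3r1 in STZ-HFD at -0.25. Without both libraries whose names end in RIP, Pik3r1 in STZ-HFD was at -0.06 and the Insr difference at -0.05. Leaving out 1 library moved Insr in db/db between -0.01 and 0.12, Igf1r between -0.07 and 0.39, Foxo1 between -0.26 and 0.61, Tbc1d4 between -0.05 and 0.35, Insr in STZ-HFD between -0.03 and 0.31, Pik3r1 between -0.19 and 0.16, and the Insr difference between -0.09 and 0.25. The cause of these changes was not tested. Depth limits Socs3 most, at 22 to 221 counts a library.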
